A study of Mus musculus with 20 samples.

Results

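The genes described here encode the proteins of the mitochondrial ribosome, taken as every mouse protein-coding gene whose symbol starts with Mrpl or Mrps followed by a number. The arrays carried a probe for 78 such genes, of 20886 genes with a named probe. Of these, 71 were tested, among 8057 tested genes. A gene was tested if 4 of the 5 arrays of some site showed its probe well above background. The 7 that did not pass were Mrpl21, Mrpl37, Mrpl42, Mrps5, Mrps11, Mrps27 and Mrps35. By current ribosome nomenclature 51 members belong to the large subunit and 26 to the small subunit, of which 48 and 22 were tested. Mrps36 carries the name but is now known as a component of the 2-oxoglutarate dehydrogenase complex, and was placed in neither subunit. Members of protein families shared with bacterial ribosomes numbered 47, and 31 belonged to families found in mitochondria and not in bacteria.

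Mitochondrial ribosomes translate the few proteins encoded by mitochondrial DNA, all of them core subunits of the respiratory chain and of ATP synthase. Their RNAs are transcribed inside the organelle, whereas all of their proteins are encoded in the nucleus, made in the cytosol and imported. T cells that are activated through the antigen receptor build new mitochondria and raise mitochondrial translation as they grow and divide, and their transcripts for these proteins are counted among the genes of activation and proliferation.

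The arrays measured RNA of donor CD8+ effector T cells recovered from the small intestine, the lung, the liver and the peripheral blood, with 5 arrays for each of the 4 sites and 20 in all. The donor cells were CD45.1+ and came from OT-I animals of strain C57BL/6-Tg(TcraTcrb)1100Mjb/J, whose transgenic T cell receptor recognises an ovalbumin peptide. The recipients of every group were female m-act OVA animals of strain C57Bl/6-Tg(CAG-OVA)-916Jen/J aged 8 to 16 weeks, in which the CAG promoter drives ovalbumin, and all other graft cells and the recipients were CD45.2. All groups share 11 Gy of total body irradiation in split doses, a graft of 3000000 marrow cells and 15000000 splenocytes, the ovalbumin transgene, and recovery by magnetic sorting for CD45.1 on day 4. There was no group without disease or before transfer, so blood is the common comparison. Since no label links an array to an animal, the p-values reflect the spread between arrays, which may be technical in part. Values are log2 processed signal relative to the 75th percentile of the same array, and they compare a gene across arrays, not one gene with another.

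The arrays differed in their content of other cells, and 3 stood apart from the other arrays of their site. An array showed 22.6% to 38.7% of its probes well above background. The mean log2 signal of 13 CD8 T cell identity genes, of 14 with a probe, was 4.81, 4.15, 5.90, 3.98 and 5.58 on the small intestine arrays 1 to 5, 4.88 to 5.46 on the lung arrays, 5.45 to 5.76 on the liver arrays and 5.19 to 5.60 on the blood arrays. Cd247 never rose clearly above background in small intestine, liver or blood. Markers of Paneth cells, the antimicrobial secretory cells of the intestinal crypt, averaged 5.79, 6.75, 2.44, 7.24 and -3.06 on the small intestine arrays, against -1.92 ± 0.76 (SD, n = 5) on the blood arrays, over the 5 of 8 markers that passed the filter. On the array labelled liver 5 these markers averaged 4.48, against -2.25 to -1.81 on the other liver arrays. Markers of alveolar macrophages (9 of 11 tested) averaged 3.19, 3.03, -2.20, 5.75 and 4.68 on the lung arrays, against -3.59 to -1.64 on the blood arrays. Hepatocyte markers (2 of 8 tested) averaged 0.07 on liver 5, against -0.91 to 0.07 on the other liver arrays. Small intestine 5 and lung 3 thus lacked the markers of other cells seen on the other arrays of their site. Liver 5 carried Paneth cell markers that the other liver arrays did not. Whether the cell content or the label differed was not tested. The main counts of members are also given without small intestine 5 and liver 5.

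To show the regulatory sequence next to these genes, the promoter windows of RefSeq for GRCm38.p6 (250 bases before to 50 after the annotated start, 300 in all) were searched for 3 sets of letters on both strands. These were CCGGAAG, bound by ETS family factors including GABP, GCGCATGCG, bound by NRF1, and AAGATGGCG, bound by YY1, all factors known from promoters of nuclear genes for mitochondrial proteins. A window was found for 69 of the 78 members. The ETS letters stood in 26 of them (37.7%), and in 38.1% of the 63 windows of tested members, against 21.8% of the windows of all tested genes and 9.93% of all windows in the table. The NRF1 letters stood in 7 members' windows (10.1%, or 11.1% of the tested members, against 4.17% of tested genes). The YY1 letters stood in 8 (11.6%, or 6.35% of the tested members, against 3.76% of tested genes). The search was chosen after values of the members had been seen, and a match describes letters, not a bound site. Of the 10 members that were lower in small intestine than in blood, described below, 5 held the ETS letters and none the NRF1 or YY1 letters. Their windows are printed from 5′ to 3′ on the strand of the gene, with the ETS letters in capitals (as CTTCCGG where they lie on the other strand, in Mrps26).
Mrps12, chr7:28741772-28742071, minus strand: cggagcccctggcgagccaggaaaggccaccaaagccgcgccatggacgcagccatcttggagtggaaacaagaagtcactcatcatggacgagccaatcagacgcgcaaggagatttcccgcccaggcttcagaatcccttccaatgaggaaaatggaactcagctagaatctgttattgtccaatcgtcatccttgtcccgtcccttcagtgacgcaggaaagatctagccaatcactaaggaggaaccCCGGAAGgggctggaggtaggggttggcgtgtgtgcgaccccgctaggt
Mrps26, chr2:130563507-130563806, plus strand: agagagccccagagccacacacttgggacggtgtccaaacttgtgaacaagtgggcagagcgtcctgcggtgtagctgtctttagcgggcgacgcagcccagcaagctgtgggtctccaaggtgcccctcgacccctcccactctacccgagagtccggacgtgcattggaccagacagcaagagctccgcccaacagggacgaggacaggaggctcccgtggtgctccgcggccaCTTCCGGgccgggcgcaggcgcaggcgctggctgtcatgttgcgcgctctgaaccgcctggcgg
Mrpl34, chr8:71464676-71464975, plus strand: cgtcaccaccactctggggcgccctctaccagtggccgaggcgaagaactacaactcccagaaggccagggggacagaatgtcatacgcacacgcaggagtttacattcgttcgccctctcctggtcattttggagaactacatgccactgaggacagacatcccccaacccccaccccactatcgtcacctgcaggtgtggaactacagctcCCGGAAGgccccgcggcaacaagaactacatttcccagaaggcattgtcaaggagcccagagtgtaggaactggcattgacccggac
Mrpl27, chr11:94653541-94653840, plus strand: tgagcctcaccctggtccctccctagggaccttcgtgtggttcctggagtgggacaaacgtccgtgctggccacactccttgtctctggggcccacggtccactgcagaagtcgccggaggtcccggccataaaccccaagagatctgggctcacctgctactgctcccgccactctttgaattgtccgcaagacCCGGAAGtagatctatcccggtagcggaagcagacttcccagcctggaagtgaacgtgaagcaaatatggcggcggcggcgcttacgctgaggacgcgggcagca
Mrpl18, chr17:12916042-12916341, minus strand: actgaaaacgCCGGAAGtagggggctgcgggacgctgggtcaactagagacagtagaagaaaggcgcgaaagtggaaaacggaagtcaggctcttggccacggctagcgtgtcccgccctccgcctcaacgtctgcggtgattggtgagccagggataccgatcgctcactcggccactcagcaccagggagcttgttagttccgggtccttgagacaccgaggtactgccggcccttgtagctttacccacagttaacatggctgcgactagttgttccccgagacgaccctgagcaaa
Counted from the annotated start, with no position 0, the capitals begin at 2 in Mrps12, at -14 in Mrps26, at -37 in Mrpl34, at -55 in Mrpl27 and at -240 in Mrpl18.

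Some mitochondrial ribosomal protein genes were lower in RNA of the sorted fraction from the small intestine than in that from blood, among them Mrpl44 and Mrpl18. Of the 71 tested members 10 fell and none rose (limma over all 8057 genes, Benjamini-Hochberg adjusted p under 0.05), which is 14.1% of the members, against 10.8% of all tested genes called in either direction and 9.92% called lower. The share of members is thus near that of the other genes. Among the 66 members well above background on at least 4 small intestine arrays 8 were called lower, against 8.72% of such genes over the whole table. The median difference over the members was -0.59 on the log2 scale, against -0.36 over all tested genes, and 66 of the 71 differences were below 0. An unadjusted limma p under 0.05 was found for 33 members (46.5%), against 32.8% of all tested genes. In bulk RNA, fewer cells of a type and less RNA per cell cannot be told apart. The 10 genes span both subunits: 5 of 48 tested in the large subunit, with a median difference of -0.58 over the 48, and 5 of 22 in the small subunit, with a median of -0.62 over the 22.

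**Figure D1:**
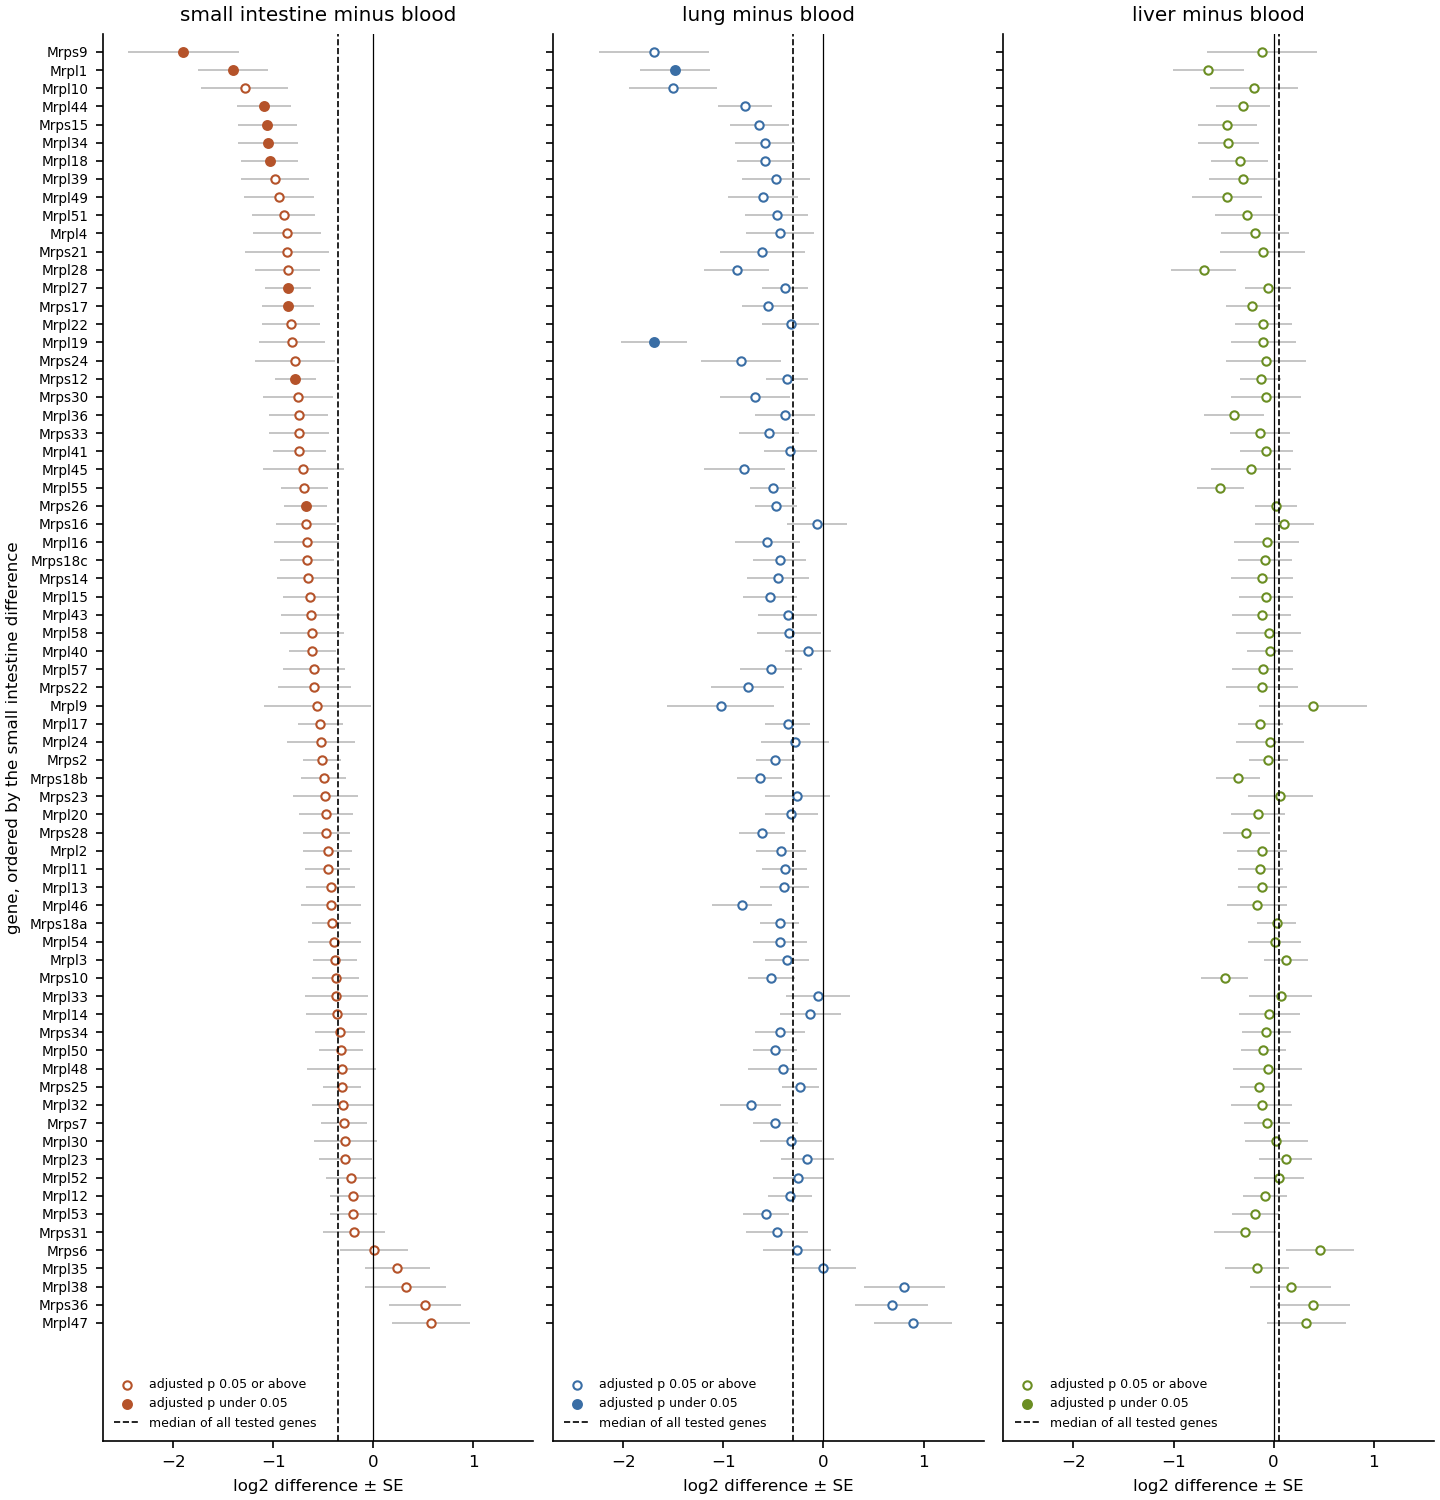
Log2 difference (± SE) of each of the 71 tested members between each organ and blood, with 1 row per gene in the order of the small intestine difference. Filled points passed an adjusted p of 0.05, and the dashed line marks the median of all tested genes (-0.36, -0.30 and 0.05 from left to right); most small intestine and lung points lie left of 0, and the liver points lie close to it.

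The plot of differences by gene places Mrps9, Mrpl1 and Mrpl10 at its lower extreme and 5 genes above 0. Of the members of families shared with bacteria 8 of 44 fell, and of those specific to mitochondria 2 of 27 (Mrpl44 and Mrps26). The medians over all tested genes of these classes were -0.54 and -0.59.

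Among large subunit proteins, Mrpl44, which has a ribonuclease III fold and is mutated in a human infantile cardiomyopathy, was measured above background on every array. Its log2 signal was 1.15, 0.85, 2.04, 1.28 and 2.01 on the small intestine arrays 1 to 5, against 2.29, 2.42, 2.64, 2.84 and 2.60 on the blood arrays 1 to 5. Every small intestine array lay below every blood array. The difference was -1.09 ± 0.27 (SE), or 0.469 of the blood level (limma adjusted p = 0.021). Mrpl18, whose bacterial counterpart binds the small RNA of the large subunit, had 2.33, 1.85, 2.81, 2.17 and 2.70 in small intestine, against 3.18, 3.32, 3.66, 3.21 and 3.67 in blood. Its groups did not overlap either, and its difference was -1.04 ± 0.29 (limma adjusted p = 0.031). Mrpl34, a small basic protein of the large subunit, had 2.47, 2.00, 3.46, 2.61 and 2.74 in small intestine, against 3.05, 3.50, 4.11, 4.04 and 3.84 in blood. Small intestine array 3 lay above blood array 1, so these groups overlapped, while on each of the 5 slides the small intestine array was the lower one. The difference of Mrpl34 was -1.05 ± 0.30 (limma adjusted p = 0.035).

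Mrpl1, a protein of the mobile stalk beside the exit site for transfer RNA, was dim. Its probe was well above background on 1 small intestine array and 4 blood arrays. Its log2 signal was -1.24, -2.14, -2.59, -2.58 and -1.47 in small intestine, against -0.96, -0.64, -0.26, -0.90 and -0.24 in blood. All 5 small intestine values lay below all 5 blood values, with a difference of -1.40 ± 0.35 (limma adjusted p = 0.023). Blood was the only site where Mrpl1 passed the filter on dim probes, so its lower level elsewhere was in part set by that filter. Mrpl27, whose bacterial counterpart reaches the peptidyl transferase centre, was chosen for naming after its values were seen. It had 3.31, 2.96, 3.51, 2.67 and 3.85 in small intestine, against 4.03, 3.98, 4.41, 4.00 and 4.15 in blood. The groups did not overlap, and the difference was -0.85 ± 0.23 (limma adjusted p = 0.029). The second probe of Mrpl27 gave the same difference, -0.85.

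In the small subunit the 5 genes were Mrps9, Mrps12, Mrps15, Mrps17 and Mrps26. Mrps12, part of the decoding centre, had 2.66, 2.38, 3.00, 2.41 and 2.51 in small intestine, against 3.45, 3.43, 3.47, 3.09 and 3.42 in blood. The highest small intestine value lay just below the lowest blood value, and the difference was -0.78 ± 0.21, or 0.583 of the blood level (limma adjusted p = 0.028). Mrps15, which in bacteria binds ribosomal RNA early in assembly, had 0.85, 0.33, 1.05, -0.25 and 0.14 in small intestine, against 1.36, 1.63, 1.68, 1.14 and 1.59 in blood. Here too the groups were apart, with a difference of -1.06 ± 0.29 (limma adjusted p = 0.031).

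Mrps9, whose bacterial counterpart touches the transfer RNA in the peptidyl site, had a dim probe, well above background on 1 small intestine array and 4 blood arrays. It had -1.76, -2.46, -1.36, -2.29 and 0.74 in small intestine, against -0.18, 0.61, 1.00, 0.91 and 0.00 in blood. Small intestine array 5, which lacked the Paneth cell markers of the other small intestine arrays, lay within the blood range, and the other 4 lay below it. The difference was -1.90 ± 0.55 (limma adjusted p = 0.037). Mrps17, an early ribosomal RNA binding protein in bacteria, and Mrps26, specific to mitochondria, were named after their values were seen. Mrps17 had 2.39, 1.70, 3.04, 2.05 and 2.69 in small intestine, against 3.09, 3.18, 3.33, 3.24 and 3.30 in blood, a difference of -0.85 ± 0.26 (limma adjusted p = 0.042). Mrps26 had 3.99, 3.62, 4.24, 3.74 and 4.55 in small intestine, against 4.68, 4.84, 4.73, 4.57 and 4.70 in blood, a difference of -0.68 ± 0.21 (limma adjusted p = 0.045). Neither gene's groups overlapped, and their second probes gave -0.83 and -0.72.

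The calls of single genes depended on the processing. Of the planned settings that tested each gene, the call was lost in 3 of 10 for Mrpl44, 2 of 10 for Mrpl18, 5 of 10 for Mrpl34, 6 of 10 for Mrps12, 6 of 9 for Mrps15, 4 of 9 for Mrps9 and 3 of 9 for Mrpl1, with an adjusted p of at most 0.11 in limma for each.

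**Figure D2:**
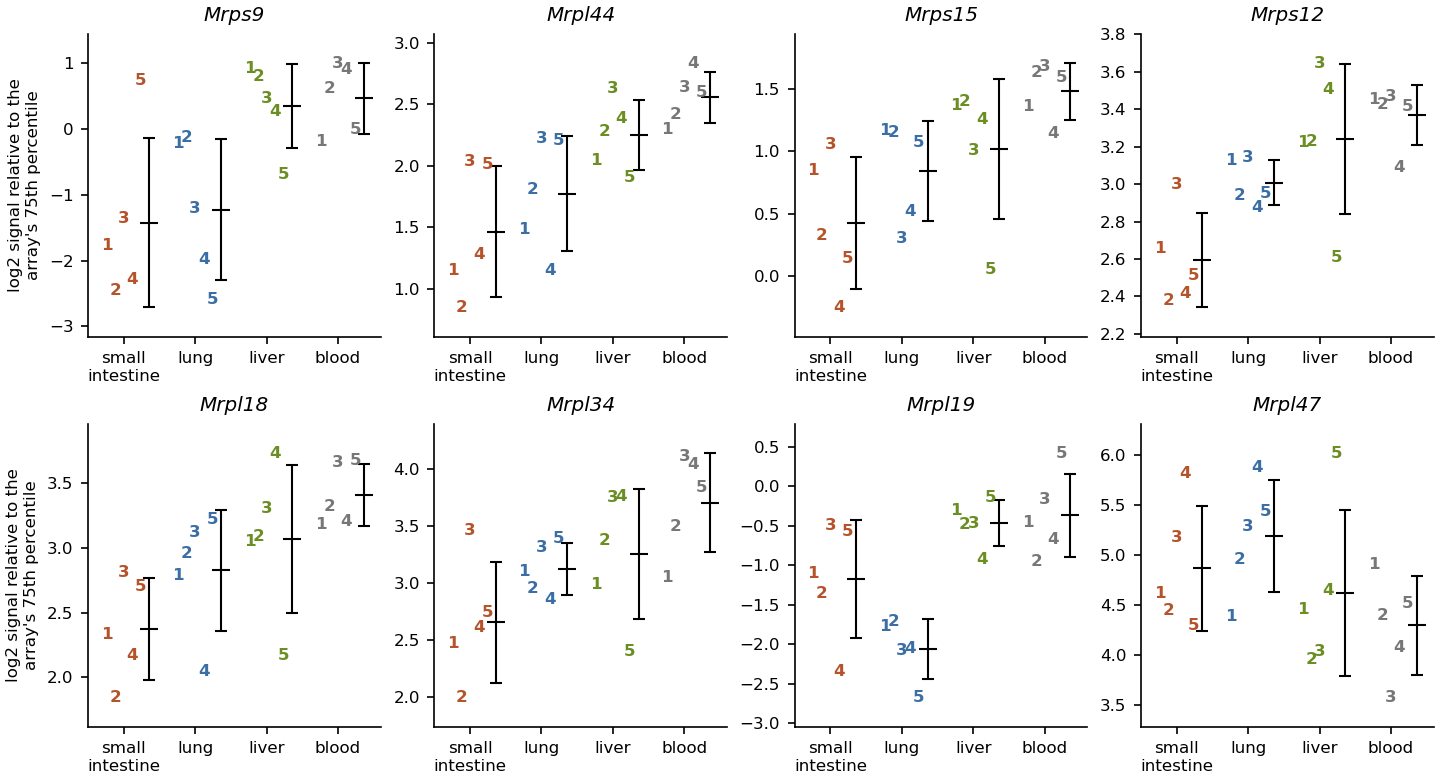
Log2 signal relative to the array's 75th percentile of 8 members on each array, by site, with digits giving the replicate number and bars the mean ± SD of 5 arrays. For Mrpl44, Mrpl18, Mrps15 and Mrps12 every small intestine array lies below every blood array, for Mrpl19 every lung array lies below all liver and blood arrays, and Mrpl47 does not share the direction.

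The plot of 8 members by array shows that small intestine array 3 was often the highest of its site. For 11 of the 71 members (15.5%) the small intestine and blood arrays did not overlap, all with small intestine lower, against 7.81% of all tested genes. These were Mrpl1, Mrpl18, Mrpl27, Mrpl28, Mrpl44, Mrpl55, Mrps2, Mrps12, Mrps15, Mrps17 and Mrps26, and without small intestine 5 and liver 5 there were 13 (18.3%, against 15.4%). On all 5 slides, each of which held 1 array of every site, 30 members (42.3%) were lower in small intestine than in the blood of the slide, against 22.3% of all tested genes, and without small intestine 5 and liver 5 it was 31 (43.7%, against 32.8%) on the other 4 slides.

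The number of called members moved with single arrays. It was 19 without small intestine 5 and liver 5, when 26.3% of all genes were called. It was 37 without small intestine 3, when 23.8% of all genes were called, 17 without small intestine 5 (25.3% of all genes) and 6 without blood 4 (6.11%). Omitting small intestine 1 gave 2 (4.57%). The count was 1 without small intestine 4 (3.24%), blood 2 (2.98%) or blood 3 (3.30%). It was 0 without small intestine 2 (0.0% of all genes) or blood 5 (2.04%). With each array scaled on its always-detected probes (those well above background on all 20 arrays) it was 0 (0.236% of all genes), and the median over the members was then -0.55, against -0.32 over all genes.

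**Figure D3:**
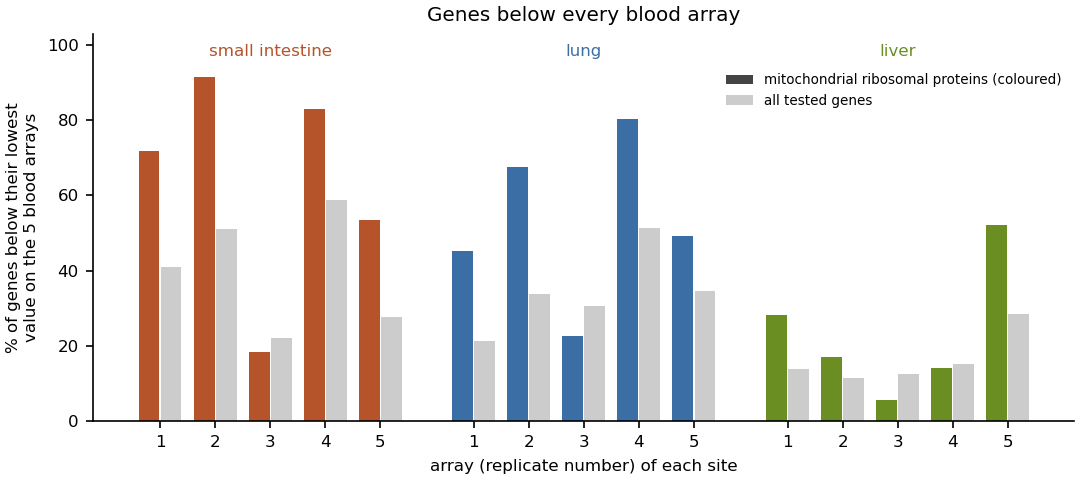
Share of the 71 tested members (coloured bars) and of all 8057 tested genes (grey bars) on each organ array that lay below their lowest value on the 5 blood arrays. The members' share was above that of all genes on 4 of 5 small intestine arrays and below it on small intestine array 3.

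Array by array, 51, 65, 13, 59 and 38 of the 71 members lay below all 5 blood arrays on small intestine arrays 1 to 5, which the plot of these shares sets beside 41.0%, 51.0%, 22.2%, 58.6% and 27.6% of all tested genes. The mean over the 71 members was 2.79, 2.40, 3.52, 2.51 and 3.05 on these arrays (2.86 ± 0.45, SD, n = 5), against 3.14, 3.30, 3.63, 3.45 and 3.58 on the blood arrays (3.42 ± 0.20, SD, n = 5). Small intestine arrays 2 and 4, lowest for the members, were also lowest for the CD8 T cell identity genes (4.15 and 3.98) and highest for the Paneth cell markers (6.75 and 7.24). Small intestine array 3 had the highest member mean and, at 5.90, the highest CD8 T cell identity mean. Array 3 of each other site, on the same slide, also had the highest of both means at its site.

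The 13 CD8 T cell identity genes themselves had a median difference of -0.55 between small intestine and blood, with 12 of 13 below 0 and none called by limma (2 at an unadjusted p under 0.05). The mean of the members minus the mean of these genes on the same array, a measure added after the values were seen, was -2.02, -1.74, -2.38, -1.47 and -2.53 in small intestine, against -2.05, -2.11, -1.98, -2.06 and -1.82 in blood. By this measure the blood values lay within the small intestine values. The part of other cells in the small intestine result was not tested further.

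In lung against blood 2 members passed the test, both lower and both of the large subunit. That is 2.82% of the members, against 0.819% of all tested genes and 0.298% called lower. Among the 65 members well above background on at least 4 lung arrays none was called lower, against 0.156% of such genes over the whole table. Mrpl19, whose bacterial counterpart sits between the subunits, had -1.78, -1.71, -2.08, -2.06 and -2.67 on the lung arrays 1 to 5, against -0.46, -0.95, -0.17, -0.67 and 0.42 on the blood arrays. The lung arrays all lay below the blood arrays, with a difference of -1.69 ± 0.33 (limma adjusted p = 0.017). No lung array and 3 blood arrays showed its probe well above background, so the fold is known only as at least 1.15-fold lower in lung. Mrpl1 had -1.15, -1.75, -2.32, -2.29 and -2.93 in lung, against the blood values given above, without overlap and with a difference of -1.48 ± 0.35 (limma adjusted p = 0.0497), again for a gene that passed the filter through blood alone. No lung array showed it well above background either, and no bound on its fold could be given. Mrpl19 was still called in 17 of 20 fits that left out 1 array and lost without lung 5, blood 3 or blood 5, and Mrpl1 in 5 of 20.

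Most members had small differences below 0 in lung, as did most genes. The median over the members was -0.46, against -0.30 over all tested genes, and 68 of 71 differences were below 0 (95.8%, against 65.0% of all tested genes). The lung and blood arrays did not overlap for 9 members (12.7%), all with lung lower, against 6.01% of all tested genes. These were Mrpl1, Mrpl10, Mrpl19, Mrpl44, Mrps7, Mrps10, Mrps17, Mrps26 and Mrps28. An unadjusted p under 0.05 was found for 21 members (29.6%), a smaller share than the 33.8% of all tested genes. On all 5 slides 31 members (43.7%) were lower in lung, against 20.9% of all tested genes.

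Mrpl10, which anchors the stalk that recruits translation factors, had 0.37, 0.29, -0.06, -1.44 and -0.18 in lung, against 0.73, 1.28, 1.53, 1.52 and 1.44 in blood. No lung value reached a blood value, yet the spread was wide and the difference of -1.50 ± 0.44 did not pass (limma adjusted p = 0.099). Mrps7, at the exit of the messenger RNA channel, had 3.72, 3.61, 3.95, 3.08 and 3.46 in lung, against 3.98, 3.98, 4.22, 4.04 and 4.00 in blood. Its groups were apart by a small step, and its difference of -0.48 ± 0.23 did not pass (limma adjusted p = 0.14). Mrps28, the counterpart of a bacterial protein that holds messenger RNA, had a lung difference of -0.61 ± 0.23 (limma adjusted p = 0.12).

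The member mean was 3.02, 2.90, 3.25, 2.58 and 3.00 on the lung arrays (2.95 ± 0.25, SD, n = 5). Lung array 3 had the highest of these and an alveolar macrophage mean of -2.20. Lung array 4 had the lowest and an alveolar macrophage mean of 5.75. Array 3 also had the highest member mean in small intestine (3.52), liver (3.57) and blood (3.63), and these arrays shared a slide. The part of the slide was not tested. Relative to the CD8 T cell identity genes of the same array, the members stood at -2.24, -2.21, -2.21, -2.30 and -2.42 in lung, each below the 5 blood values given above. The liver arrays, given below, also lay below blood by this measure. The part of other cells in the lung values was not tested further. The count of called members in lung ran from 0 to 4 with 1 array left out. It was 3 without small intestine 5 and liver 5 (2.17% of all genes), 4 without lung 1 (10.5%), 0 without lung 5, blood 3 or blood 5 (0.199% to 0.298%), and 1, with 0.285% to 1.30% of all genes, without small intestine 2 or 3, lung 2, 3 or 4, liver 1, 2, 3 or 4, or blood 1, 2 or 4.

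In liver against blood no member passed limma's test, as no gene of all tested did (0.0%). An unadjusted limma p under 0.05 was found for 2 members (2.82%), against 2.79% of all tested genes. The median over the members was -0.11, against 0.05 over all tested genes, with 56 of 71 below 0. Without small intestine 5 and liver 5 the median was -0.02 and 39 of 71 were below 0. The groups did not overlap for 2 members, both with liver lower, against 0.794% of all tested genes. These were Mrpl55, with 3.33, 3.67, 3.76, 3.91 and 3.09 in liver, against 3.98, 4.10, 4.03, 4.15 and 4.16 in blood, and Mrps10, with 3.69, 3.72, 3.31, 3.64 and 3.62 in liver, against 4.21, 4.12, 3.99, 3.86 and 4.25 in blood. Both were picked once their values had been seen, and their differences were -0.53 ± 0.23 and -0.49 ± 0.24 (limma adjusted p = 0.997 for both). The member mean was 3.14, 3.23, 3.57, 3.55 and 3.02 on the liver arrays (3.30 ± 0.25, SD, n = 5), the lowest being the array labelled liver 5. Relative to the CD8 T cell identity genes of the same array, the members stood at -2.36, -2.22, -2.19, -2.16 and -2.66 in liver. The liver arrays too thus all lay below the blood arrays by this measure. All 13 CD8 T cell identity genes themselves had a difference above 0 between liver and blood, with a median of 0.15 and none called by limma. The measure thus moves with this reference as well as with the members. On liver 5, 37 of 71 members (52.1%) lay below all blood arrays, against 28.3% of all tested genes. On liver arrays 1 to 4 it was 20, 12, 4 and 10 members (28.2%, 16.9%, 5.63% and 14.1%). The shares of all tested genes there were 13.7%, 11.4%, 12.4% and 15.2%.

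Between organs, Mrpl19 was the one member called. In lung against liver 1 member fell, against 0.285% of all tested genes: Mrpl19 had -1.78, -1.71, -2.08, -2.06 and -2.67 in lung, against -0.31, -0.49, -0.48, -0.93 and -0.14 in liver. No value was shared between the groups, with a difference of -1.59 ± 0.33 (limma adjusted p = 0.037) and a fold of at least 1.08-fold lower for the dim lung probe. Liver was the only site where Mrpl19 passed the filter, with 4 arrays well above background, so its selection favoured a higher level there. Among the 65 members well above background on at least 4 lung arrays none was called lower than in liver, against 0.0156% of such genes. This call was absent without small intestine 5 and liver 5 (0.248% of all genes), and without small intestine 1, lung 2, 4 or 5, liver 1, 2, 3 or 5, or blood 1 or 3. The groups did not overlap for 5 members with lung lower (7.04%), Mrpl9, Mrpl10, Mrpl19, Mrps6 and Mrps18a, against 4.02% of all tested genes, and for 8 (11.3%, against 8.79%) without small intestine 5 and liver 5. In small intestine against liver 18 members had an unadjusted limma p under 0.05 (25.4%, against 22.0% of all tested genes). The median over the members was -0.47, against -0.34 over all genes. No member passed limma's test in that comparison (0.0% of all tested genes). That count became 13 without small intestine 5 and liver 5, when 16.3% of all genes were called, 5 without small intestine 5 (10.2%) and 3 without liver 5 (4.01%). All small intestine arrays lay below all liver arrays for 3 members (4.23%), Mrpl27, Mrps2 and Mrps18a, against 1.25% of all tested genes. Without small intestine 5 and liver 5 there were 10 such members (14.1%), fewer than the 15.6% of all tested genes. The genes in these lists were picked once their values had been seen. In small intestine against lung 1 member had an unadjusted limma p under 0.05 (1.41%, against 8.24% of all tested genes). No member passed limma's test in that comparison (0.149% of all tested genes), with a median of -0.10, against -0.15 over all genes. Its groups overlapped for every member, against 0.695% of all tested genes with small intestine apart and lower, and no member was called without small intestine 5 and liver 5 (2.63% of all genes). An F-test over the 4 sites called Mrpl19 alone (limma adjusted p = 0.032, 0.757% of all tested genes), and 12 members (16.9%, against 18.8% of all genes) without small intestine 5 and liver 5. Leaving out 1 array gave 7 members (9.86%) by the F-test without small intestine 5 (13.2% of all genes) or liver 5 (6.90%), and 2 without lung 1 (1.56%). It gave 0, with 0.161% to 0.509% of all genes, without small intestine 2, lung 4 or 5, liver 1 or 2, or blood 1, 3, 4 or 5.

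By mean level the sites ran small intestine, lung, liver, blood for the members as a list, and neighbours in that order overlapped array by array. Small intestine and lung were also lowest for all tested genes, whose means were 1.82, 1.95, 2.11 and 2.08 in that order of sites. The same held for the CD8 T cell identity genes, at 4.88, 5.23, 5.62 and 5.42. The spread over the 5 arrays of a site was a little smaller for members than for genes in general. The median SD of a member was 0.53 in small intestine, 0.36 in lung, 0.37 in liver and 0.33 in blood, against 0.62, 0.50, 0.43 and 0.40 for all tested genes. Mrps18a had the smallest SD in small intestine (0.18) and in liver (0.10).

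The paralogous trio Mrps18a, Mrps18b and Mrps18c descends from 1 bacterial protein, and Mrps18a sits in the large subunit. Their differences between small intestine and blood were -0.41 ± 0.20, -0.50 ± 0.22 and -0.66 ± 0.27, and none passed the test (limma adjusted p = 0.15, 0.13 and 0.099). Other members with well-known roles also had values below 0 in small intestine that did not pass. They were Mrpl58, a peptidyl-tRNA hydrolase that rescues stalled ribosomes (-0.61 ± 0.32), Mrps30, a large subunit protein despite its symbol (-0.75 ± 0.35), and Mrps34, mutated in human Leigh syndrome (-0.33 ± 0.25). The stalk proteins Mrpl11 and Mrpl12 had -0.46 ± 0.22 and -0.21 ± 0.22, and Mrpl3, near the peptidyl transferase centre, had -0.38 ± 0.22. Mrpl14 and Mrpl48 lay among the smaller differences, at -0.37 ± 0.31 and -0.32 ± 0.35, and Mrps24 had -0.79 ± 0.40.

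4 genes of the list stood on the other side of 0 in small intestine and Mrps6 at 0.01. Mrpl47 had 4.39, 4.96, 5.28, 5.88 and 5.43 in lung and 4.62, 4.44, 5.17, 5.82 and 4.29 in small intestine, against 4.91, 4.40, 3.57, 4.08 and 4.52 in blood, with overlapping groups. Its differences were 0.89 ± 0.39 in lung and 0.57 ± 0.39 in small intestine (limma adjusted p = 0.13 and 0.27). Mrpl38, specific to mitochondria, had 3.32, 3.74, 4.29, 4.55 and 4.52 in lung, against 3.30, 3.67, 2.67, 3.28 and 3.46 in blood. It was higher in lung on all 5 slides, but the groups overlapped and the difference of 0.81 ± 0.40 did not pass (limma adjusted p = 0.16). Its small intestine difference was 0.32 ± 0.40. Mrps36 had differences of 0.68 ± 0.36 in lung and 0.52 ± 0.36 in small intestine, and Mrpl35 had 0.00 ± 0.32 and 0.24 ± 0.32, none of which passed.

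For Mrpl47 and Mrps36 a second probe gave another answer. The second probe of Mrpl47 gave -0.70 in lung and -0.02 in small intestine, and that of Mrps36 gave -0.95 in both. Which transcripts each probe reads was not examined, so the direction of these 2 genes is not settled. Of the 22 members with more than 1 probe, 12 had a second probe that passed the filter. In small intestine against blood 10 of the 12 pairs shared their sign, the median gap was 0.10, and Mrpl47, Mrps36 and Mrpl49 differed by over 0.5.

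The other proteins of mitochondrial translation were set beside the members. The 5 mitoribosome proteins with symbols of another form, Dap3, Ptcd3, Chchd1, Aurkaip1 and Gadd45gip1, had a median of -0.57 in small intestine against blood, with all 5 below 0 and none called by limma (1 at an unadjusted p under 0.05). Dap3 had -0.68 and Ptcd3 -0.77. Lists are read here beside the 9.92% of all tested genes called lower. Of 16 tested assembly factors 1 fell in small intestine, Tfb1m, the dimethyltransferase of the small ribosomal RNA (-1.92 ± 0.55, limma adjusted p = 0.036, on a probe well above background on 1 small intestine array that passed the filter through blood alone), and the median was -0.92.

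Of 11 tested translation factors 2 fell in small intestine. Tufm, the elongation factor that carries aminoacyl-tRNA to the ribosome, had 3.32, 3.36, 4.10, 3.95 and 3.81 in small intestine, against 4.66, 4.80, 4.58, 4.31 and 4.68 in blood. Those groups did not overlap, with a difference of -0.90 ± 0.21 (limma adjusted p = 0.019). Gfm1, the translocation factor, fell by 0.92 ± 0.27 (limma adjusted p = 0.036).

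Of 13 tested mitochondrial aminoacyl-tRNA synthetases, which charge transfer RNAs for this ribosome, 5 fell in small intestine, against 9.92% of all tested genes. The median over the 13 was -0.92. Without small intestine 5 and liver 5, when 26.3% of all genes were called, 6 assembly factors, 3 translation factors and 7 synthetases were called lower. With all arrays, the 5 synthetases included Lars2 (-1.85 ± 0.57), Tars2 (-1.08 ± 0.34), Hars2 (-0.92 ± 0.27) and Aars2, with limma adjusted p of 0.044, 0.044, 0.037 and 0.041 in that order. Lars2 and Aars2 were well above background on 1 and 0 small intestine arrays, against 4 blood arrays each, and Lars2 passed the filter through blood alone. Among 4 tested genes of mitochondrial transcription Polrmt, the mitochondrial RNA polymerase, fell by 1.13 ± 0.31 (limma adjusted p = 0.031), while of 7 tested regulators of mitochondrial biogenesis none passed limma's test (0 at an unadjusted p under 0.05) and the median was 0.55. In lung limma called no gene of these lists. An unadjusted limma p under 0.05 was found for 3 of 16 assembly factors, 4 of 11 translation factors and 6 of 13 synthetases. For all tested genes the share was 33.8%. The medians were -0.61 for assembly factors, -0.56 for translation factors and -0.62 for synthetases.

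**Figure D4:**
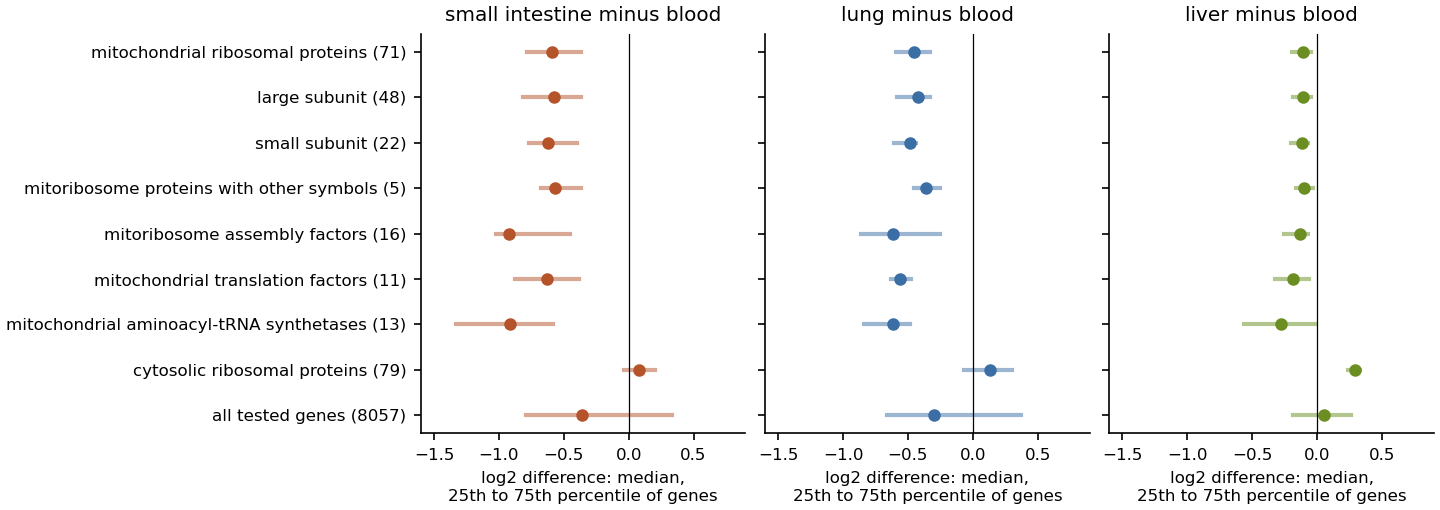
Median log2 difference between each organ and blood (points) with the 25th to 75th percentile over the genes (lines) for the members, their subunits, other lists of mitochondrial translation, the cytosolic ribosomal proteins and all tested genes, with the number of genes in brackets. The lists of mitochondrial translation lie left of the median of all genes in small intestine, and the cytosolic ribosomal proteins lie right of it.

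The proteins of the cytosolic ribosome did not share this direction, as the plot of list medians shows. Of 79 tested genes none passed limma's test in any organ against blood (1 at an unadjusted p under 0.05 in small intestine, 0 in lung). Their medians were 0.08 in small intestine, 0.13 in lung and 0.29 in liver, above the median of all genes by 0.44, 0.43 and 0.24. The sign turned with the normalization: under quantile normalization the medians were -0.08, -0.06 and 0.03, above all genes by 0.14, 0.17 and 0.04, and with scaling on always-detected probes the lung median was -0.05.

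**Figure D5:**
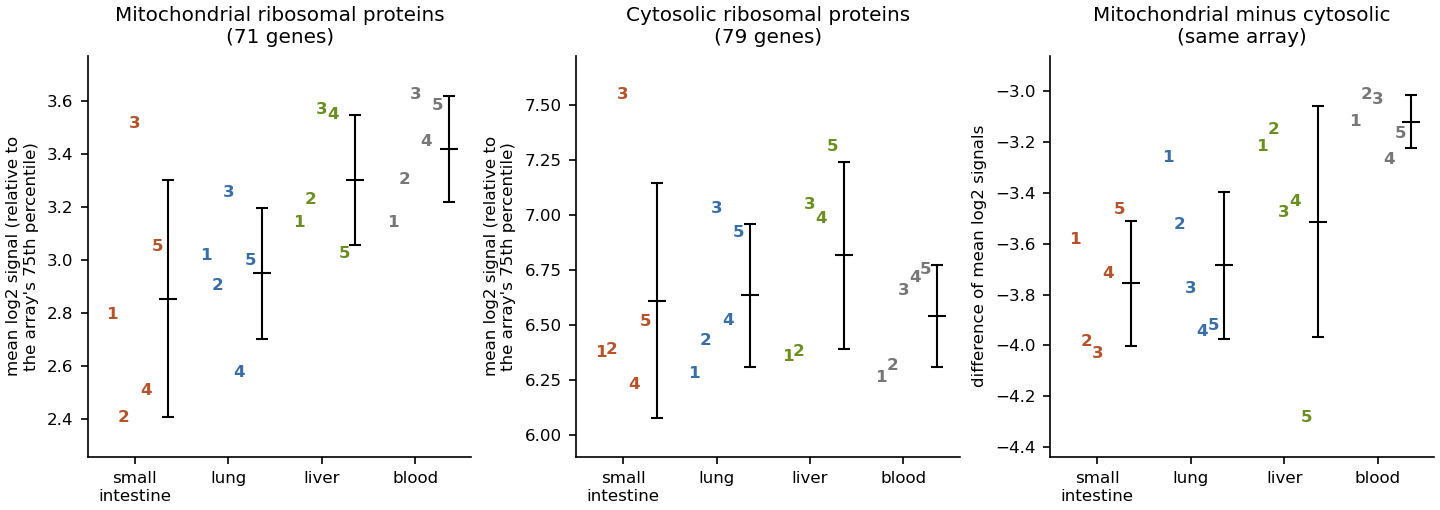
Mean log2 signal on each array of the 71 tested mitochondrial ribosomal protein genes (left), of the 79 tested cytosolic ribosomal protein genes (middle) and their difference on the same array (right), by site, with digits giving the replicate number and bars the mean ± SD of 5 arrays. In the right panel the small intestine values (-4.03 to -3.47) lie below all blood values (-3.27 to -3.01).

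A difference between both kinds of ribosomal protein on the same array does not depend on the scaling factor of that array. This measure, added after the values were seen, is shown in the plot of array means. It was -3.58, -3.98, -4.03, -3.72 and -3.47 in small intestine and -3.26, -3.53, -3.78, -3.94 and -3.92 in lung. It was -3.22, -3.15, -3.48, -3.43 and -4.28 in liver, against -3.12, -3.01, -3.03, -3.27 and -3.17 in blood. Every small intestine array lay below every blood array, including array 3, lung array 1 lay just above blood array 4, and liver arrays 1 and 2 lay within the blood values, with liver arrays 3 to 5 below them. On small intestine array 3, where the members were high, the cytosolic proteins were high as well, at 7.55 against 6.23 to 6.52 on the other small intestine arrays. The lowest value of all, -4.28, was on liver 5, the liver array with Paneth cell markers. Relative to the CD8 T cell identity genes, given above, the blood values lay within the small intestine values. The separation from blood thus depends on the list used as reference, and the part of other cells in it was not tested.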

How the data were processed

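Total RNA of sorted cells went through 2 rounds of linear amplification, received a Cy3 label and was put on 1-colour Agilent arrays, per the labels' protocols. Feature Extraction 11.0.1.1 gave the processed signal, a linear intensity with background subtracted, per the file headers. Version 10.7 and Partek are named in the submitters' processing notes. The table of values the authors deposited is in log2 units and equals quantile-normalized log2 processed signal (median absolute difference 3.43e-06, column medians 8.05), and was used as an alternative. Amplification can compress or distort levels of low transcripts.

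Of 44397 spots per array 1377 controls were left out, as were 24 non-uniform spots over all 20 arrays together. Log2 processed signal minus the array's 75th percentile was taken, spots of a probe were averaged, and 27508 of 39429 probes were named through RefSeq accessions (gene table of GRCm38.p6). The array files' build was not used. The brightest probe of a gene was used. The 75th percentile signal was 823 to 2845 per array, and precision is limited by how many arrays there are. Tests used limma 3.58.1 in R 4.3.3 with 1 coefficient per site over 20 arrays, two-sided, with Benjamini-Hochberg adjustment per contrast at 0.05. The fit was tested on simulated data. Where no array of a site showed a probe well above background, there is a bound only, from the lowest signal well above background of each array, and no fold where that is under 1. Replicate numbers equal the 5 slides, each with 1 array per site.

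Members and lists were chosen with earlier results of these data known. Named were the called members by size (up to 6 per contrast), the extremes of the F-test and of small intestine against blood, and a set of members with known roles. The normexp alternative used the median signal, since the files used hold no mean signal. Alternatives are given in the closing section.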

Additional observations from a re-analysis of the deposited data

Results flagged for a closer look

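Among 124 sets of 5 arrays (a member or list at a site) 5 held an array far from the other 4 by Dixon's test, whose critical value is 0.71. Chance alone marks about 1 in 20 sets, so the count is no more than that. Mrpl14 stood at 5.51 on small intestine array 3, against 3.85 to 4.20 on the others. The mean of the cytosolic ribosomal proteins was high on the same array, at 7.55 against 6.23 to 6.52. Mrps7 stood at 4.22 on blood array 3, against 3.98 to 4.04. Mrps12 stood at 3.09 on blood array 4, against 3.42 to 3.47. Mrps15 stood at 0.051 on the array labelled liver 5, against 1.01 to 1.40 on the other liver arrays. That array also stood apart from them in its Paneth cell markers.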

How the results depend on the processing

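The medians over the members kept their sign under all 10 planned settings and all 20 fits without 1 array for each organ against blood, for lung against liver and for small intestine against liver. They ran from -0.64 to -0.40 for small intestine against blood, -0.64 to -0.38 for lung against blood and -0.29 to -0.02 for liver against blood under the planned settings. The median of small intestine against lung was -0.10, became 0.12 with scaling on always-detected probes, and was 0.00 to 0.01 with quantile normalization, normexp and the deposited table. No difference of a named member that passed the test changed sign. Of the named differences under all settings 108 lost their call and 27 gained one. The other 4689 stayed on their side of the threshold, but most of them were not called in the main fit and could not be lost. Among the called differences, Mrpl19 in lung against blood kept its call in 8 of 9 planned settings, and Mrpl1 there in 3 of 9.

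Counts of called members depended on the setting, and the share of all tested genes called in that setting is given in brackets. For small intestine against blood 10 became 5 with quantile normalization or the deposited table (6.14%) and 5 with normexp (7.04%). It became 0 with scaling on always-detected probes (0.236%) and 0 with no filter (1.22%, more genes tested). With only the 2 sites fitted (fewer arrays) it was 2 (4.06%), and without small intestine 5 and liver 5 it was 19 (26.3%). For lung against blood 2 became 1 with quantile normalization or the deposited table (0.323%), scaling on always-detected probes (0.298%), no filter (0.306%) or 2 sites (0.285%). It became 0 with normexp (0.248%) or with probes above background on all arrays (0.0%), a filter that removes both dim genes. For lung against liver 1 became 0 with normexp, scaling on always-detected probes, no filter, the strict filter, 2 sites, or without small intestine 5 and liver 5. For the F-test 1 became 0 with normexp (0.459%), scaling on always-detected probes (0.261%) or the strict filter (0.088%), and 12 without those 2 arrays (18.8%). Small intestine against liver went to 13 without them (16.3%). The cause of the other changes was not tested. Leaving out 1 array in turn gave 0 to 37 for small intestine against blood (0.0% to 25.3%) and 0 to 4 for lung against blood (0.199% to 10.5%). It gave 0 to 1 for lung against liver (0.124% to 0.807%) and 0 to 5 for small intestine against liver (0.0% to 10.2%). The F-test gave 0 to 7 (0.161% to 13.2%), and each fit gave 0 for liver against blood and for small intestine against lung.

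With the replicate number as a block the counts were 14 for small intestine against blood (14.4% of all tested genes) and 2 for lung against blood (1.41%). They were 1 for lung against liver (0.397%) and 1 for the F-test (0.968%). The numbers were not shown to pair arrays: correlations of same-numbered arrays ran from -0.37 to 0.56, and no comparison had all 5 over 0.1. Those of replicate 3 were above 0 in every comparison, from 0.15 to 0.44. Probes near background limit Mrpl1, Mrpl19 and Mrps9.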
